A study of Mus musculus with 36 samples.

Results

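The oxidative phosphorylation genes are the genes of the mitochondrial respiratory chain and ATP synthase, and they were followed here in mouse embryonic stem cells cultured on soft or stiff StemBond hydrogels or on tissue culture plastic. StemBond hydrogels are polyacrylamide gels to which matrix protein is tethered, and the study asked how substrate stiffness acts on self-renewal. Genes were taken by symbol (Nduf with a, b, c, s or v, Sdha to Sdhd, Uqcr, Cox4 to Cox8, Atp5, and the protein-coding genes of mitochondrial DNA), without pseudogenes, when their mean over all 36 libraries was at least 5 CPM, the usual unit of counts scaled to library size. Of 49671 genes in the count table, 117 matched these names, 7 of them were pseudogenes, 15 lay under the level, and 95 remained. They comprised 85 nuclear genes (35 of complex I, 8 complex I assembly factors, 4 of complex II, 8 of complex III, 14 of complex IV and 16 of complex V) and 10 mitochondrially encoded genes. All 95 also passed the filter on low counts that left 17702 genes in the tests. The members nearest to the level were mt-Co2 and mt-Co3, both at 8.03 CPM, and Ndufaf5 at 8.98 CPM. Just under it lay mt-Nd4l at 2.72 CPM, Atp5s at 2.57 CPM, mt-Atp8 at 2.23 CPM and mt-Nd3 at 1.89 CPM.

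All cells were wild type with the strain label 129m, and all media held serum. In the labels the 11 groups were cells on soft or stiff substrate for 24 h in serum + LIF, cells on plastic for 48 h in serum + LIF, and cells on soft or stiff substrate for 48 h in serum, serum + LIF, serum + PD03 or serum + LIF + PD03. LIF is a cytokine that sustains self-renewal, and PD03 (PD0325901) inhibits MEK, the kinase that activates ERK. Each group held 3 libraries except soft serum + PD03, which held 6. The labels do not say whether replicates were separate cultures, so the p-values measure the spread between these libraries, which may be technical. Libraries held 10405696 to 26635239 counts.

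The pluripotency markers Pou5f1, Sox2, Nanog, Esrrb and Zfp42 summed to 1657 to 3017 CPM in every library, so the defining markers of the labelled cell type were present throughout. Targets of ERK (Dusp6, Etv4 and Spry4) summed to 254 to 326 CPM in the libraries without PD03 and to 8.25 to 13.7 CPM in those with it, so the PD03 labels matched the data. Sequencing pools followed the groups. All plastic and 24 h libraries were in the first pool, the 48 h stiff libraries were in the second, apart from 1 of the 3 in serum + LIF, which was in the first, and the 48 h soft libraries were in the third, apart from 2 of the 6 in serum + PD03, which were in the second. PD03 with LIF on soft, PD03 without LIF on stiff, LIF without PD03 on soft, LIF with PD03 on stiff and soft against stiff at 24 h were therefore each compared within a pool. The other PD03 and LIF comparisons held 1 or 2 libraries of another pool. Pool largely coincided with substrate between soft and stiff at 48 h and between hydrogel and plastic, and with time between 24 h and 48 h. In bulk RNA, fewer cells of a type and less RNA per cell cannot be told apart.

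As background, complexes I and II pass electrons from NADH and succinate to ubiquinone, complex III passes them on to cytochrome c, and complex IV hands them to oxygen. Complexes I, III and IV pump protons across the inner mitochondrial membrane, and complex V, the ATP synthase, uses the returning protons to make ATP. Most subunits are encoded in the nucleus, translated in the cytosol and imported, while a small core is transcribed from mitochondrial DNA as long polycistronic RNAs by a dedicated polymerase and translated on mitochondrial ribosomes, so that the complexes need products of both genomes. Complex II is wholly nuclear. Pluripotent stem cells rely strongly on glycolysis, and naive mouse embryonic stem cells are known to respire more than primed ones.

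The nuclear genome carries copies of mitochondrial DNA, so a read from a mitochondrially encoded gene can match more than 1 place. The opening of mt-Co2, the complex IV subunit that receives electrons from cytochrome c, is shown first because it stands unaltered in the nuclear pseudogene Gm28661, whose alignment with mt-Co2 held no difference over 681 bases. The stretch of mt-Co1, the catalytic subunit of complex IV, is shown because it differs from its nuclear copy Gm29216 at the bases in capitals. Both stretches were read from the GRCm38 reference, mt-Co2 at chrM:7013-7072 and mt-Co1 at chrM:6388-6447 on the forward strand, Gm28661 at chr1:24615506-24615565 and Gm29216 at chr1:24616131-24616190 on the reverse strand.
mt-Co2: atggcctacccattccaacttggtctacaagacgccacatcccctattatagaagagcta
Gm28661: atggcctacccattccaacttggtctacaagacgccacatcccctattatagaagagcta
mt-Co1: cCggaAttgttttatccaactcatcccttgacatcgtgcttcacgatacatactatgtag
Gm29216: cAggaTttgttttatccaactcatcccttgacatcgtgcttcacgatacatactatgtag
Counted from the first base of mt-Co1, the substitutions from mt-Co1 to Gm29216 in this stretch were C1062A and A1066T, and over the 492 aligned bases 6 differed. A second copy, Gm13340, differed from mt-Co1 at 37 of 1545 bases.

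The share of 50-base stretches that a gene holds in common with another gene was therefore measured. It was 100% for mt-Co2, 99.9% for mt-Co3 and 99.5% for mt-Atp6, 62.2% for mt-Nd4 and 51.1% for mt-Co1, 8.19% for mt-Nd2 and 7.61% for mt-Nd5, and 0 for mt-Nd1, mt-Nd6 and mt-Cytb. Per kilobase of exon at equal library size (FPKM), mt-Nd1 averaged 2518, mt-Co1 2178, mt-Cytb 1666, mt-Nd2 1321, mt-Nd5 914, mt-Nd6 598 and mt-Nd4 448. On the same scale mt-Atp6 was at 18.9, mt-Co2 at 11.8 and mt-Co3 at 10.3, and these genes with nearly complete nuclear copies were the lowest of the 10. A low level was also seen for mt-Atp8, a short gene of complex V under the level of 5 CPM that overlaps mt-Atp6. It shared 0 stretches and averaged 10.99 FPKM. Only annotated transcripts were searched, so copies outside annotated genes would not have been seen, for mt-Atp8 or any other gene. How the authors' counting handled reads that match several places is not stated, and the levels of those 3 genes, of mt-Nd4 and of mt-Co1 are uncertain. The share of counts lost to copies was not tested.

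**Figure D1:**
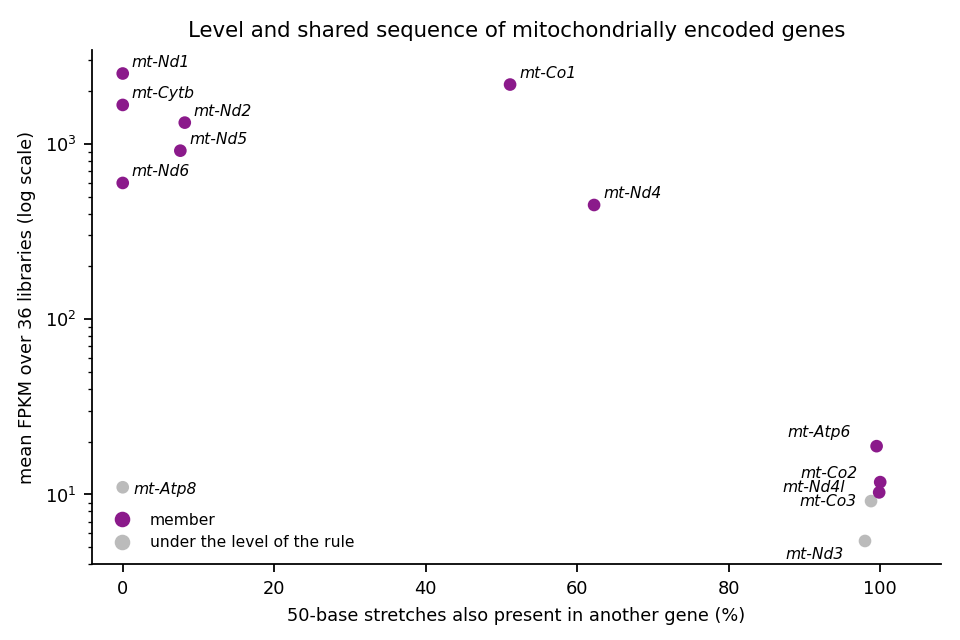
Mean level of each mitochondrially encoded gene over all 36 libraries (vertical axis, FPKM, log scale) against the share of its 50-base stretches also present in another gene (horizontal axis, %), with genes under the level of 5 CPM drawn apart. Members with 0 shared stretches lay between 598 and 2518 FPKM, mt-Atp8, under the level, lay at 10.99 FPKM with 0 shared stretches, and mt-Co2, mt-Co3 and mt-Atp6, with 99.5% or more, lay between 10.3 and 18.9 FPKM.

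Promoters are shown for the 3 nuclear members with the widest responses to PD03 described below: Cox7a1, the complex IV subunit isoform best known from heart and skeletal muscle, Cox5a, a constitutive complex IV subunit, and Ndufaf4, an assembly factor of complex I. The windows run from 250 bases before to 50 after the start and come from RefSeq (GRCm38.p6), with Cox7a1 at chr7:30183921-30184220, Cox5a at chr9:57520982-57521281 and Ndufaf4 at chr4:24897833-24898132, all on the forward strand. Capitals mark matches, on either strand, to any of 5 motifs: the NRF1 core GCGCATGC, the GABP core CCGGAAG, the ERR element TCAAGGTCA, the YY1 core AAGATGGC and the SP1 box GGGCGG.
Cox7a1: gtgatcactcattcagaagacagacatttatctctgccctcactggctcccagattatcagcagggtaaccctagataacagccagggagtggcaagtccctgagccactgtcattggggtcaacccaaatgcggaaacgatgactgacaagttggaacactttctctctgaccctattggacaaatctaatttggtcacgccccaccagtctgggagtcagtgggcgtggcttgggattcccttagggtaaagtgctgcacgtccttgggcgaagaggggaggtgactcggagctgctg
Cox5a: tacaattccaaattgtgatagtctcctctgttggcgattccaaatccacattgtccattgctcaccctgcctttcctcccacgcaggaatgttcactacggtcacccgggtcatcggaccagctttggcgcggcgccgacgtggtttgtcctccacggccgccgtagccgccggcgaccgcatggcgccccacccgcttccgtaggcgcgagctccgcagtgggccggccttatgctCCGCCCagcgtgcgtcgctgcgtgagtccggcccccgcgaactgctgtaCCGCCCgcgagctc
Ndufaf4: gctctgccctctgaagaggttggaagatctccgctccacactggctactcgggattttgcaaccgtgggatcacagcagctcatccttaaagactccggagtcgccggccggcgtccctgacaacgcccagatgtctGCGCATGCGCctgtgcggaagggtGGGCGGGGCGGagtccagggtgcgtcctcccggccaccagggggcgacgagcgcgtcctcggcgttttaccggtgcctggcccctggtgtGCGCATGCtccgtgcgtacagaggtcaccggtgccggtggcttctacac
The Cox7a1 window held 0 matches, the Cox5a window 2 SP1 boxes, and the Ndufaf4 window 3 matches to the NRF1 core, of which 2 overlap on opposite strands, and 2 SP1 boxes.

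RefSeq held a promoter for 71 of the 85 nuclear members, and 32851 promoters in all. A member counted when any of its windows held a match. The share over all promoters was taken window by window, so the paired shares differ in unit. The NRF1 core was found for 16.9% of the 71 members and in 2.71% of all promoters. The GABP core was found in 25.4% against 8.86%, the YY1 core in 14.1% against 2.75%, the ERR element in 2.82% against 0.423%, and the SP1 box in 45.1% against 35.7%. NRF1 and GABP are textbook activators of respiratory genes. A match is a description of letters and not a site in use.

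Among nuclear members, levels were steady across the groups. The fold between the highest and the lowest of the 11 group means had a median of 1.26 over the 85 nuclear members, against 1.48 over the 10475 genes of the table at 5 CPM or more. It was above 1.5 for 10 members and above 2 for 2, Cox7a1 at 3.89 and Cox5a at 2.35. Complex I assembly factors had a median fold of 1.43, complex IV subunits 1.31, and complexes I, II, III and V 1.22 to 1.27. All 10 mitochondrially encoded members exceeded 2, with a median of 2.49 and the widest range in mt-Atp6 at 5.51. Plastic was the highest group for all 10. The lowest was soft 48 h serum + LIF for mt-Nd1 and stiff 48 h serum for the others. Each of these hydrogel groups held a library low in mitochondrial counts, described below. Of the 10475 genes, 22% exceeded 2.

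Per length, nuclear members had a median of 50.5 FPKM and spanned 4.69 to 603 FPKM, where exons used by few transcripts lower a gene's value. Complex IV reached highest, with Cox6a1 at 603 FPKM, followed by Atp5b, the catalytic beta subunit of ATP synthase, at 427 FPKM. Complex I subunits lay between 9.17 and 105 FPKM, and the assembly factors, which are needed during construction but do not remain in the finished complex, between 4.69 and 23.7 FPKM. Complex II subunits lay between 16.1 and 60.7 FPKM and complex III subunits between 27.9 and 270 FPKM.

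As a share of all counts in a library, the 10 mitochondrially encoded members took 1.98% ± 0.25 (SD, n = 3) on plastic, with libraries between 1.79% and 2.26%. In the 33 libraries on hydrogel they took 0.443% to 1.52%, below every plastic library. The 85 nuclear members took 1.05% ± 0.02 (SD, n = 3) on plastic, and group means of 1.12% to 1.21% on hydrogel. Mitochondrial ribosomal RNA followed the same order as the mitochondrially encoded members, at 0.480% to 0.654% of counts on plastic and 0.131% to 0.250% on hydrogel.

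**Figure D2:**
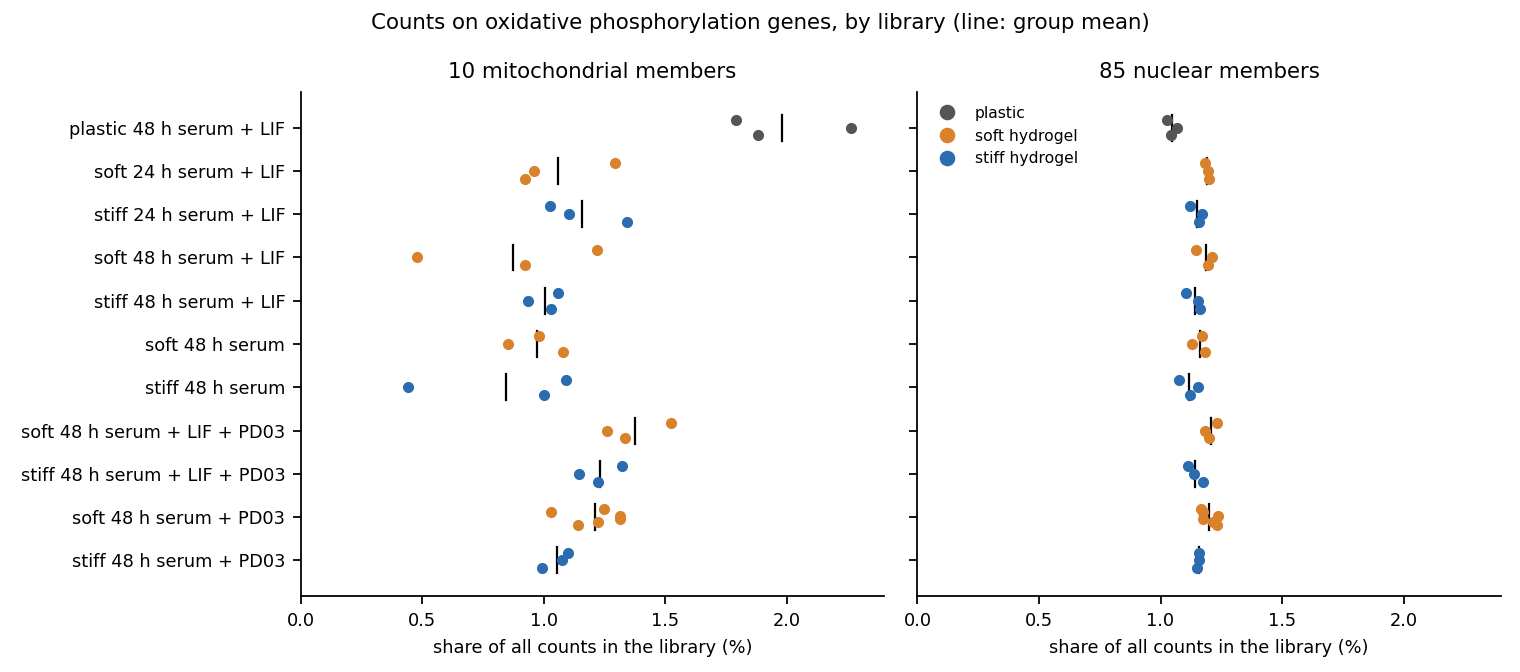
Share of each library's counts (horizontal axis, %) that fell on the nuclear and on the mitochondrially encoded members, for the 11 groups (rows), with a point per library and a line at the group mean. The 3 plastic libraries lay at 1.79% to 2.26% for mitochondrially encoded members, to the right of all others, and single libraries of stiff serum and soft serum + LIF at 48 h lay lowest, at 0.443% and 0.479%.

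These low libraries stood apart within their own groups. In library 2 of stiff 48 h serum, the 10 mitochondrially encoded members were at 0.34 to 0.69 of the mean of the other libraries of the group (median 0.43), while the 85 nuclear members were at 0.86 to 1.196 (median 1.08). In library 2 of soft 48 h serum + LIF, the mitochondrially encoded members were at 0.40 to 0.92 (median 0.46) and the nuclear members at 0.88 to 1.17 (median 1.04). Library numbers are only names, since the columns of the count table carry the group without a replicate number.

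Plastic against hydrogel in serum + LIF at 48 h gave the widest difference in mitochondrially encoded members. All 10 were lower on soft than on plastic, and all 10 were lower on stiff than on plastic (edgeR quasi-likelihood test, adjusted p under 0.05). No library of either hydrogel overlapped a plastic library for any of them. The share of all genes without such overlap was not measured, and the 10 were read from the same libraries. Of all 17702 genes tested, 6.47% were lower and 5.29% higher on soft than on plastic, and 3.59% were lower and 1.95% higher on stiff than on plastic. The median log2 fold change of the 10 was -1.20 for soft and -1.05 for stiff, beside medians of -0.00 and 0.00 for all genes. The soft and stiff comparisons share the plastic libraries. Plastic libraries also had the highest share of counts on Gm26917, an abundant noncoding RNA gene, at 2.45% to 3.19% against at most 2.19% on hydrogel, and low TMM scaling factors, at 0.963 to 0.965 against 0.964 to 1.05. With library sizes taken without mitochondrial genes and Gm26917, all 10 still passed on soft and on stiff.

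The gene mt-Nd1, a core membrane subunit of complex I with no shared 50-base stretch, stood at 4453, 5560 and 4262 CPM on plastic. It stood at 1925, 945 and 2270 CPM on soft and at 2077, 1903 and 2130 CPM on stiff. Every plastic library was thus above every hydrogel library, and the library at 945 CPM was the low one described above. The log2 fold change was -1.47 ± 0.19 (SE, edgeR adjusted p = 3.71e-08) for soft and -1.22 ± 0.19 (adjusted p = 4.3e-06) for stiff. At 24 h, in the pool of the plastic libraries, mt-Nd1 was at 1890, 1924 and 2320 CPM on soft and at 2751, 2308 and 1968 CPM on stiff, also below plastic, although 24 h and 48 h differ in time too.

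The other members of complex I followed. On the log2 scale soft was below plastic by -1.26 for mt-Nd2, -1.03 for mt-Nd4, -1.22 for mt-Nd5 and -0.94 for mt-Nd6, and stiff by -1.13, -0.91, -1.12 and -0.78 for the same genes. The counts of mt-Nd6, on the light strand, thus moved in the same direction as those of the heavy-strand genes. Because the strand setting of the counting is not stated, counts of mt-Nd6 may include reads from the opposite strand. For mt-Cytb, the mitochondrially encoded subunit of complex III, the changes were -1.18 and -0.99. For mt-Co1, the levels were 5306, 5414 and 5043 CPM on plastic, 2452, 1427 and 3532 CPM on soft and 2962, 2672 and 3027 CPM on stiff, with changes of -1.09 ± 0.17 and -0.86 ± 0.17 (SE).

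The widest change was that of mt-Atp6, which encodes the proton-channel subunit of ATP synthase. It stood at 41.2, 41.9 and 36.9 CPM on plastic, 11.2, 7.68 and 15.1 CPM on soft and 12.2, 10.02 and 9.52 CPM on stiff, without overlap, and changed by -1.82 ± 0.17 (SE) on soft and -1.93 ± 0.18 on stiff. The other genes with nuclear copies changed by -1.08 and -0.98 (mt-Co2) and -1.24 and -1.57 (mt-Co3). Without both low libraries, the 10 members changed by -0.62 to -1.61 on soft, and all 10 kept an adjusted p under 0.05. Pool was also fitted as a further term, over every assignment of columns to pools that the labels allow. Then 0 to 6 of the 10 passed on soft and at least 4 on stiff. On soft, mt-Nd1 lay between -1.16 and -1.85, mt-Co3 between -0.55 and -1.71 and mt-Co2 between -0.07 and -2.20.

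Markers of fibroblasts (Col1a1, Col1a2, Dcn, Pdgfra and Thy1) also moved with plastic. Their sum was 71.1 to 82.0 CPM on plastic, 30.5 to 35.7 CPM on soft and 37.8 to 45.4 CPM on stiff, and the pluripotency markers summed to 1657 to 1779 CPM, 2009 to 2107 CPM and 1897 to 1997 CPM. Their part in the result was not tested. None of the 14 genes for mitochondrial DNA maintenance and transcription measured, among them the polymerase Polrmt and the packaging factor Tfam, passed the edgeR test in either plastic comparison, with median log2 fold changes of 0.03 and 0.02. Of all genes, 11.8% were called on soft and 5.54% on stiff, and at those shares few of 14 genes would pass.

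Nuclear members went the other way on soft, by small amounts. Of 85, 15 were higher and 0 lower on soft than on plastic (all genes 5.29% and 6.47%), with a median log2 fold change of 0.12. On stiff 2 were higher and 1 lower (all genes 1.95% and 3.59%), with a median of 0.03. The counts on stiff were thus near or below the shares of all genes. Among the 15, Cox7a1 changed by 0.54 ± 0.16 (edgeR adjusted p = 0.0166), Cox5a by 0.34 ± 0.06 (adjusted p = 8e-06) and Sdhc, a membrane anchor of complex II, by 0.33 ± 0.07 (adjusted p = 0.000384). For Sdhc the libraries stood at 51.8, 42.1 and 45.2 CPM on plastic and at 58.1, 57.7 and 58.9 CPM on soft, without overlap. In complex IV, Cox6a1 changed by 0.26 and Cox5b by 0.24. In complex I, Ndufb2 changed by 0.24 and the assembly factor Ndufaf8 by 0.32.

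Of complex III, only Uqcrc1, a core subunit, passed on soft (0.20). Complex V contributed Atp5g1 (0.26), which encodes a c subunit of the rotating ring, Atp5d (0.25), Atp5h (0.20), Atp5o (0.18), Atp5b (0.17) and Atp5a1 (0.14), and for Atp5d, Atp5h and Cox5b the libraries overlapped. The 3 calls on stiff became 0 without stiff library 1, and 1 without stiff library 2 or plastic library 3. On stiff, Uqcrc1 (0.19) and Atp5g1 (0.24) were higher and the assembly factor Ndufaf2 (-0.28) lower than on plastic. Ndufaf2 shares 64.1% of its 50-base stretches with B230220B15Rik on the opposite strand, and its counts are uncertain because the strand setting of the counting is not stated. The 15 calls on soft became 7 without both low libraries, 6 to 32 with 1 library left out, (32 without soft serum + LIF library 3, 9 without plastic library 1, and 6 without soft serum + LIF library 2 or plastic library 3), and 0 to 3 with pool as a term.

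PD03 changed nuclear members in both directions and left their typical level nearly where it was. In serum + LIF on soft, 17 of 85 were higher and 23 lower with PD03 (all genes 27.8% and 26.6%). On stiff with LIF, 17 were higher and 22 lower (all genes 28.3% and 27.8%). Without LIF, 24 were higher and 20 lower on soft (all genes 29% and 28.5%), and 21 were higher and 22 lower on stiff (all genes 28.4% and 27.4%). Median log2 fold changes of the nuclear members were -0.06, -0.07, -0.01 and -0.04 in that order, beside medians of 0.00, -0.01, -0.00 and 0.01 over all genes. The shares of members called in each direction were near or below those of all genes.

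The 4 PD03 comparisons share no libraries. Over all 4, 14 nuclear members were higher in each and 11 lower in each, 23 passed in none, and 0 passed with both signs. Of all genes, 21.5% were higher in each and 19.9% lower in each. Complex I had 7 higher and 2 lower of 35, its assembly factors 0 and 3 of 8, complex II 1 and 1 of 4, complex III 2 and 2 of 8, complex IV 4 and 1 of 14 and complex V 0 and 2 of 16. The comparison that lay within the third pool was PD03 with LIF on soft, and that within the second was PD03 without LIF on stiff.

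The widest response was that of Cox7a1. On soft it stood at 14.5, 10.9 and 10.1 CPM in serum + LIF and at 26.5, 28.2 and 40.1 CPM with PD03 added. On stiff it stood at 12.2, 9.67 and 9.42 CPM in serum + LIF and at 24.8, 21.9 and 24.3 CPM with PD03 added. Every PD03 library was above every library without PD03, which ranged from 7.25 to 14.5 CPM over the whole series. In serum without LIF, soft went from 12.8, 8.89 and 12.03 CPM to between 26.6 and 34.1 CPM (median 30.4 CPM, 6 libraries), and stiff from 9.16, 9.08 and 9.68 CPM to 24.2, 24.5 and 26.7 CPM. The log2 fold changes were 1.41 ± 0.13 on soft and 1.19 ± 0.14 on stiff with LIF, and 1.44 ± 0.12 and 1.43 ± 0.14 without (SE, edgeR adjusted p from 4.11e-15 to 1.82e-10).

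Its paralogue Cox7a2, the isoform of most tissues, did not pass in any of the 4, with log2 fold changes of -0.11 to -0.02. Cox7a2l, the related protein that joins complexes III and IV, was lower with PD03 in 3 of the 4, by -0.25 and -0.19 on soft and stiff with LIF and by -0.16 on soft without LIF, and changed by -0.04 on stiff without LIF (edgeR adjusted p = 0.687).

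Cox5a was the second, from a far higher level. It stood at 150, 152 and 146 CPM on soft and 130, 137 and 130 CPM on stiff in serum + LIF, and with PD03 at 279, 264 and 282 CPM and at 290, 248 and 245 CPM. In serum it stood at 147, 137 and 144 CPM on soft and 122, 126 and 109 CPM on stiff, and with PD03 between 262 and 293 CPM (median 278) and at 251, 269 and 252 CPM. The groups with and without PD03 did not overlap on either substrate. The log2 fold changes were 0.88 ± 0.05, 0.98 ± 0.05, 0.96 ± 0.05 and 1.11 ± 0.05 for soft with LIF, stiff with LIF, soft without LIF and stiff without LIF (edgeR adjusted p from 1.46e-23 to 9.61e-20).

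The other members higher in all 4 moved less. In complex I they were Ndufc1 (0.41 to 0.54), Ndufa6 (0.31 to 0.46), Ndufa13 (0.26 to 0.44), Ndufb4 (0.29 to 0.49), Ndufa3 (0.25 to 0.32), Ndufb8 (0.14 to 0.24), which are accessory subunits, and Ndufv2 (0.20 to 0.33), an iron-sulphur subunit of the NADH-oxidising arm. In complex II it was Sdhb, the iron-sulphur subunit (0.21 to 0.32), in complex III Uqcr10 (0.37 to 0.42) and Uqcrb (0.26 to 0.34), and in complex IV Cox6a1 (0.29 to 0.33) and Cox6b1 (0.18 to 0.36). Ndufa13 shares 28.5% and Uqcrb 25.5% of its 50-base stretches with other genes. For Ndufb4, Ndufb8 and Cox6b1 the libraries with and without PD03 overlapped in at least 1 comparison.

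Ndufaf4 led the members lower in all 4. It stood at 37.3, 31.2 and 33.9 CPM on soft and 35.8, 32.6 and 34.3 CPM on stiff in serum + LIF, and with PD03 at 22.7, 22.9 and 21.7 CPM and at 20.6, 20.7 and 21.2 CPM. In serum it stood at 31.4, 34.4 and 33.1 CPM on soft and 37.9, 37.6 and 38.0 CPM on stiff, and with PD03 between 20.2 and 23.1 CPM (median 21.4) and at 21.7, 20.5 and 22.4 CPM. No library with PD03 reached one without it. The log2 fold changes were -0.61 ± 0.07, -0.72 ± 0.07, -0.62 ± 0.06 and -0.82 ± 0.07 in the order given for Cox5a (edgeR adjusted p from 2.73e-14 to 3.21e-10).

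The assembly factors Ndufaf7 (-0.58 to -0.49), and Ndufaf2 (-0.48 to -0.28) were lower as well, and no assembly factor was higher in all 4. In complex I the subunits lower in each were Ndufs1, the largest iron-sulphur subunit (-0.37 to -0.25), and Ndufb10 (-0.31 to -0.18). In complex II, Sdhd, a membrane anchor, was lower (-0.39 to -0.23), opposite to Sdhb, and Sdha and Sdhc passed in none of the 4. In complex III they were Uqcrq (-0.27 to -0.16) and Uqcrc1 (-0.24 to -0.12), in complex IV Cox6c (-0.26 to -0.18), and in complex V Atp5e (-0.55 to -0.37) and Atp5f1 (-0.19 to -0.14). For Cox6c and Uqcrq the libraries overlapped in some comparisons.

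**Figure D3:**
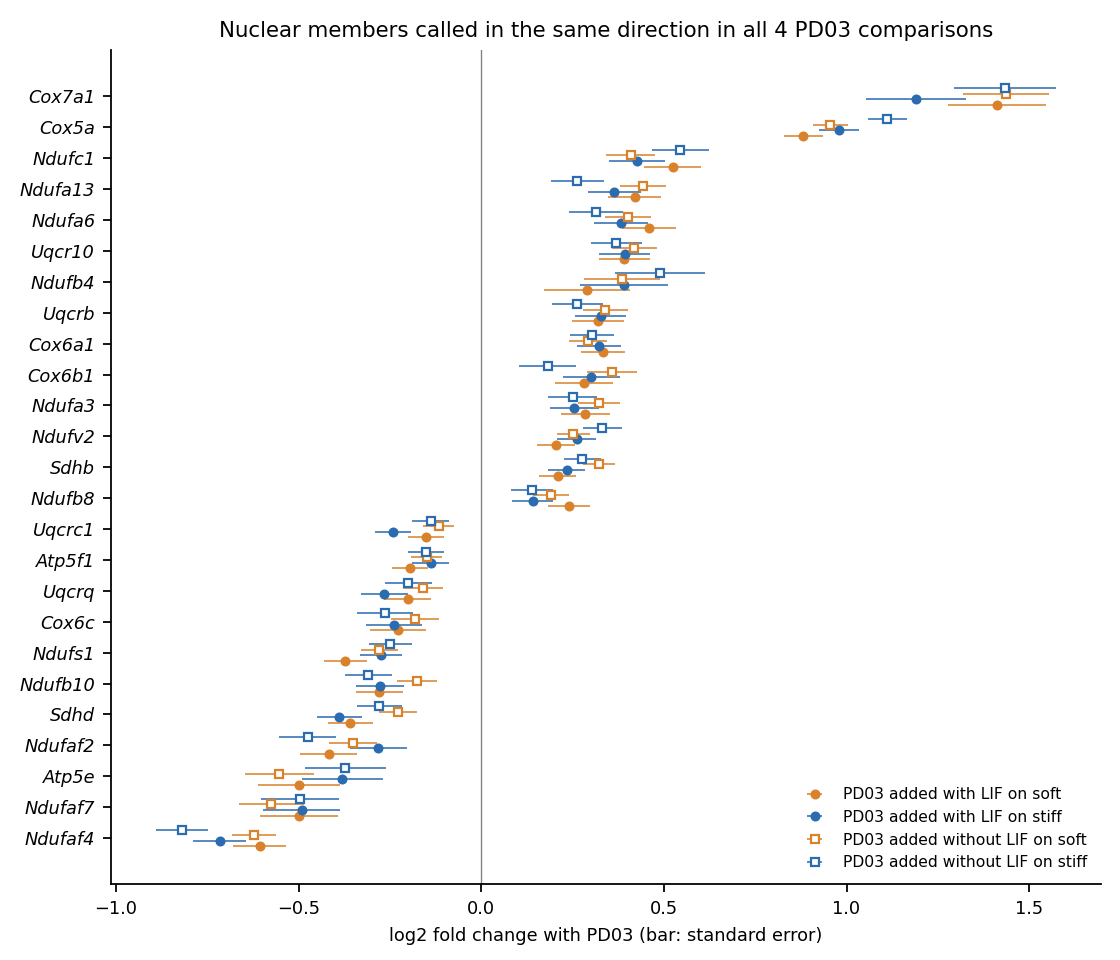
Log2 fold change with PD03 (horizontal axis, bars are standard errors) of the 25 nuclear members called in the same direction in all 4 comparisons (rows), for soft in orange and stiff in blue, filled with LIF and open squares without LIF. Cox7a1 lay at 1.19 to 1.44 and Cox5a at 0.88 to 1.11, apart from the other members, and Ndufaf4 lay lowest at -0.82 to -0.61.

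**Figure D4:**
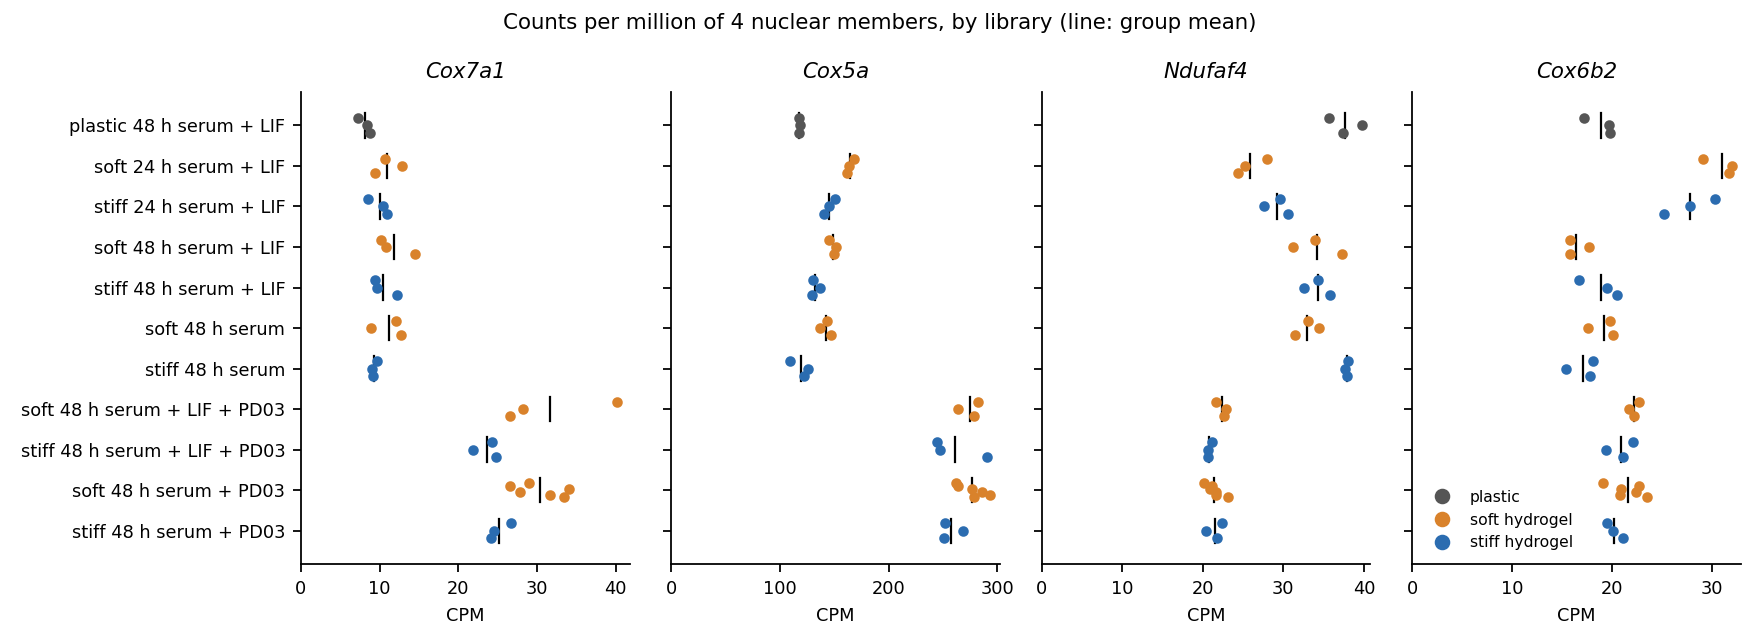
CPM (horizontal axes, from 0) of Cox7a1, Cox5a, Ndufaf4 and Cox6b2 in every library of the 11 groups (rows), with a point per library and a line at the group mean. The 15 PD03 libraries separated from all others for Cox7a1, Cox5a and Ndufaf4, whereas Cox6b2 was highest in the 6 libraries at 24 h.

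Mitochondrially encoded members were higher with PD03 in some comparisons. With LIF on soft 8 of 10 passed, with a median log2 fold change of 0.59 and changes between -0.04 and 0.74. With LIF on stiff 0 passed in edgeR (2 at an unadjusted p under 0.05 and 0 in DESeq2), with a median of 0.24. Without LIF, mt-Nd5 and mt-Co1 passed on soft and mt-Co1 on stiff, with medians of 0.29 and 0.29. Of all genes, 27.8% on soft and 28.3% on stiff were higher with LIF present, and 29% and 28.4% without LIF. Only the 8 of 10 on soft with LIF lay above these shares. No member passed in all 4. For mt-Co1 on soft with LIF the libraries stood at 2452, 1427 and 3532 CPM without PD03 and at 4254, 3917 and 4194 CPM with it, and the change was 0.74 ± 0.17 (edgeR adjusted p = 0.000162). Without both low libraries, of which that at 1427 CPM is 1, the change was 0.47 (adjusted p = 6.36e-05).

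The low library of soft serum + LIF bore on that count. Without both low libraries 5 of 10 passed on soft with LIF, 5 on stiff with LIF, 5 on soft without LIF and 0 on stiff without LIF, with medians of 0.34, 0.24, 0.28 and 0.00. With 1 library left out, between 2 and 8 passed on soft with LIF, with 2 without soft serum + LIF library 2, the low one, and 5 without soft serum + LIF + PD03 library 3, and DESeq2 called 5. Without LIF, between 0 and 4 passed on soft and between 0 and 5 on stiff, with 0 without soft serum library 2 and 5 without stiff serum library 3. Without the filter on low counts 7 passed on stiff with LIF, 7 on soft without LIF and 6 on stiff without LIF. The share of all genes called without that filter was not measured, here or for the comparisons below. The difference between substrates in the response to PD03, tested as an interaction, passed for 0 of the mitochondrially encoded members with LIF and for 0 without (0 at an unadjusted p under 0.05 in each, and 0 in DESeq2).

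Genes that serve the respiratory chain were followed through lists chosen by function. Beside each list stand the shares of all genes called in all 4 PD03 comparisons, 21.5% higher and 19.9% lower. Of 14 genes for mitochondrial DNA maintenance and transcription, 10 were lower and 1 higher with PD03 in all 4 comparisons, with median log2 fold changes of -0.35 to -0.30. They included Tfam (-0.76 to -0.63), the single-strand binding protein Ssbp1 (-0.86 to -0.72), the helicase Twnk (-0.84 to -0.50), the elongation factor Tefm (-0.74 to -0.43) and Polrmt (-0.51 to -0.34), and the DNA polymerase subunit Polg was higher (0.16 to 0.28). Of 78 mitochondrial ribosomal proteins, 30 were lower and 3 higher in all 4, with medians of -0.21 to -0.15. The widest of these was Mrpl34 (-0.98 to -0.58).

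Assembly factors outside the naming rule gave 1 higher and 4 lower of 10 for complex I in all 4 (all genes 21.5% and 19.9%). Among them were Tmem126a (-0.998 to -0.73) and Ecsit (-1.08 to -0.90). For complex IV, assembly factors gave 3 higher and 2 lower of 19, near or below the shares of all genes. There Surf1 changed by -1.11 to -1.02 and the inserter of mt-Co2, Cox18, by 0.58 to 0.85. For complex II, complex III and ATP synthase, 1 of 4, 1 of 6 and 1 of 4 were lower, namely Sdhaf2, Bcs1l and Atpaf2, and 0 were higher. Cyc1, the cytochrome of complex III, was lower in all 4 (-0.27 to -0.10), and cytochrome c, Cycs, in 2. Ubiquinone synthesis had 1 higher, Coq3 (1.13 to 1.38), and 2 lower, Pdss1 and Pdss2, of 11. The tricarboxylic acid cycle with pyruvate dehydrogenase had 3 higher, led by Sucla2 (0.59 to 0.70), and 5 lower, led by Dlat (-0.44 to -0.25), of 17.

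Among 9 regulators of respiratory genes, Gabpa (0.12 to 0.20), Gabpb1 (0.16 to 0.28) and Esrrb (0.21 to 0.69) were higher with PD03 in all 4, and Nrf1 (-0.22 to -0.13), Hif1a (-0.30 to -0.16) and Ppargc1b (-0.85 to -0.52) lower. Markers of other cells also moved with PD03. The trophoblast markers Cdx2, Elf5 and Gata3 summed to 9.22 to 18.4 CPM in the 48 h hydrogel groups without PD03 and to 81.8 to 123.7 CPM with it, and 2 of 3, Cdx2 and Gata3, were higher in all 4. Fibroblast markers on stiff summed to 37.8 to 57.7 CPM without PD03 and 67.7 to 92.3 CPM with it. On soft they summed to 27.5 to 35.7 CPM and 31.9 to 45.8 CPM. Of these 5 genes, 1 was higher and 2 were lower in all 4, with Dcn among the lower. The pluripotency markers summed to 1668 to 2107 CPM without and 2488 to 3017 CPM with PD03, with Nanog at a log2 fold change of 1.84 to 2.15. Their part in the members' changes was not tested.

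Soft and stiff hydrogels differed little in these genes. At 24 h in serum + LIF, within a pool, 1 of 85 nuclear members was higher on soft and 0 lower (all genes 1.03% and 2.52%). It was Cox7a2l, at 58.5, 56.5 and 57.6 CPM on soft and 45.9, 54.1 and 44.4 CPM on stiff, with a log2 fold change of 0.26 ± 0.08 (edgeR adjusted p = 0.0398) and no overlap, but it no longer passed without soft library 1, soft library 2, stiff library 1 or stiff library 3. At 48 h in serum + LIF, 0 nuclear members passed in edgeR (19 at an unadjusted p under 0.05, 1 in DESeq2, and 7 without soft library 3), where 0.446% of all genes were higher and 0.333% lower.

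In serum without LIF, 2 were higher, Cox5a (0.26 ± 0.05) and Ndufv2 (0.17 ± 0.05), and 1 lower, Cox7c (-0.26 ± 0.07), with 2.08% of all genes higher and 2.77% lower. In serum + PD03 it was Cox8a that was higher (0.20 ± 0.05), with 2.13% and 3.42%. In serum + LIF + PD03, 7 were higher and 0 lower, with 2.8% and 4.82%. They were Cox7a1 (0.41 ± 0.12), Sdhc (0.25 ± 0.06), Ndufa12 (0.23), Cox7c (0.23), Cox8a (0.20), Cox6a1 (0.19) and Ndufb8 (0.19), of which Cox6a1 overlapped between substrates. Of the 7, 4 are complex IV subunits.

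For Cox8a, a small subunit of complex IV, the libraries in serum + PD03 ranged from 244 to 284 CPM on soft (median 259.6) and stood at 228, 225 and 231 CPM on stiff, and in serum + LIF + PD03 they stood at 246, 272 and 256 CPM and 232, 224 and 218 CPM, without overlap in either medium. Soft and stiff at 48 h were largely in different pools. With pool as a term the 3, 1 and 7 calls in serum, serum + PD03 and serum + LIF + PD03 each fell to 0 under some assignments. Leaving out 1 library gave 1 to 3 in serum (1 without stiff library 1), 0 to 2 in serum + PD03 (0 without stiff library 2, and 2 without soft library 5) and 0 to 8 in serum + LIF + PD03 (0 without stiff library 3, 1 without stiff library 2, and 2 without soft library 3).

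The mitochondrially encoded members gave 0 calls between soft and stiff in all 5 comparisons (edgeR, with 0, 1, 2, 1 and 1 at an unadjusted p under 0.05 in the order given, and 0 in DESeq2). Their median log2 fold changes were -0.20 at 24 h and -0.13 at 48 h in serum + LIF, and 0.25, 0.25 and 0.19 in serum, serum + PD03 and serum + LIF + PD03. The direction in 2 of these rested on the low libraries, since without them the median in serum + LIF at 48 h was 0.16, with 10 of 10 members higher on soft in place of 2, and in serum it was -0.03, with 4 of 10 higher in place of 10, and again 0 passed in each of the 5. Over the 5 comparisons single members lay between -0.32 and 0.59, closer to 0 than any of them in the plastic comparisons. Without the filter on low counts 5, 3, 5, 7 and 6 of the 10 passed. They were lower on soft in serum + LIF and higher on soft in the other media. The share of all genes called without the filter was not measured, and the cause was not tested. At 48 h in serum + LIF and in serum, the medians given above turned the other way without the low libraries. The nuclear medians were 0.02, 0.07, 0.05, 0.08 and 0.09.

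The response of Cox7c to PD03 differed between substrates. This complex IV subunit stood in serum at 268, 225 and 259 CPM on soft and at 305, 317 and 280 CPM on stiff, and with PD03 between 220 and 250 CPM (median 232) on soft and at 210, 206 and 200 CPM on stiff. Without PD03 soft was thus below stiff, and with it above. The difference between the log2 changes, soft minus stiff, was 0.45 ± 0.09 (SE, edgeR interaction, adjusted p = 0.00729), where 0.797% of all genes passed. It was the only call among the 95 members, and it was lost without soft serum library 2. Cox7c shares 22.1% of its 50-base stretches with other genes.

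In the other interactions 0 members passed in edgeR: stiffness by PD03 with LIF (all genes 1.07%), stiffness by time (0.254%), and PD03 by LIF on soft (0.0226%) and on stiff (1.09%). At an unadjusted p under 0.05 the nuclear and mitochondrially encoded members numbered 3 and 0, 15 and 1, 4 and 0, and 2 and 0 in that order, and DESeq2 called 0 in each. Without the filter on low counts 8, 2, 7 and 0 members passed.

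LIF at 48 h gave 0 calls among the 95 members in all 4 comparisons (edgeR). Without PD03, 0.0169% of all genes were higher and 0% lower with LIF on soft, and 0.712% and 0.695% on stiff. With PD03 they were 0.0395% and 0.0678% on soft, and 0.294% and 0.22% on stiff. At an unadjusted p under 0.05, 9, 7, 2 and 1 nuclear members passed in that order and 0, 1, 0 and 0 mitochondrially encoded members, and DESeq2 called 1 nuclear member on stiff without PD03 and 0 elsewhere. Without the filter on low counts 1, 7, 5 and 7 mitochondrially encoded members passed. Their median log2 fold change without PD03 was -0.09 on soft and 0.25 on stiff, and turned to 0.15 and -0.06 without both low libraries. Nuclear log2 fold changes lay between -0.24 and 0.25 over the 4. In the 48 h hydrogel groups without PD03, the LIF target Socs3 stood at 78.6 to 87.4 CPM with LIF. Without LIF it stood there at 43.1 to 73.2 CPM.

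Between 24 h and 48 h in serum + LIF, nuclear members shifted in composition. On soft, 15 were higher and 5 lower at 48 h (all genes 12.9% and 11.4%), and on stiff 10 were higher and 19 lower (all genes 12.6% and 13%). On both substrates 6 were higher and 5 lower (all genes 8.28% and 6.93%), and 47 passed on neither. The 48 h libraries were in other pools than the 24 h libraries, apart from 1 stiff library. Time and pool on soft cannot be told apart.

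Cox6b2, the testis-type isoform of a complex IV subunit, fell most. It stood at 31.7, 32.04 and 29.1 CPM on soft and 25.2, 27.8 and 30.3 CPM on stiff at 24 h, and at 15.8, 17.7 and 15.8 CPM and 20.5, 19.5 and 16.7 CPM at 48 h, without overlap. The log2 fold changes were -0.91 ± 0.09 (edgeR adjusted p = 9.2e-11) and -0.57 ± 0.09 (adjusted p = 1.79e-06). On plastic at 48 h, in the pool of the 24 h libraries, Cox6b2 stood at 19.8, 19.7 and 17.2 CPM, although plastic differs from them in substrate too. Its paralogue Cox6b1 did not pass on either substrate.

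The other genes lower on both were complex I subunits, Ndufa1 (-0.39 and -0.34 on soft and stiff), Ndufs4 (-0.30 and -0.36), Ndufb7 (-0.25 and -0.43) and Ndufs6 (-0.20 and -0.33). Higher on both were the complex I subunit Ndufs1 (0.24 and 0.23), the assembly factor Ndufaf4 (0.40 and 0.23), the flavoprotein Sdha of complex II (0.25 and 0.14), Uqcrc1 (0.17 and 0.21), and the alpha and gamma subunits of ATP synthase, Atp5a1 (0.19 and 0.17) and Atp5c1 (0.33 and 0.26). For Ndufs4 the libraries at 24 h ranged from 62.5 to 73.1 CPM and at 48 h from 50.5 to 59.4 CPM over both substrates, without overlap. Plastic at 48 h, which differs in substrate too, stood at 55.4, 58.9 and 52.3 CPM.

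On stiff, further changes were seen for Ndufaf5 (0.55 ± 0.13), Atp5g2 (0.47 ± 0.12), which shares 38.3% of its 50-base stretches with other genes, Ndufaf7 (0.36 ± 0.10) and Atp5mpl (-0.42 ± 0.09), and on soft for Cox7c (0.43 ± 0.07) and Uqcr10 (0.31 ± 0.07). Among mitochondrially encoded members 0 passed on soft in edgeR (0 at an unadjusted p under 0.05, 0 in DESeq2, and 6 lower without the filter on low counts), where the median of -0.19 turned to 0.10 without both low libraries. On stiff mt-Co3 was lower (-0.52 ± 0.14, adjusted p = 0.00482), and 7 were lower without the filter on low counts, 7 in the compared groups alone and 2 without both low libraries. With pool as a term 0 to 5 nuclear members passed on soft and 6 to 17 on stiff. Of 17 genes of the tricarboxylic acid cycle and pyruvate dehydrogenase 5 were higher and 0 lower on both substrates (all genes 8.28% and 6.93%). For 78 mitochondrial ribosomal proteins these counts were 10 and 0.

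**Figure D5:**
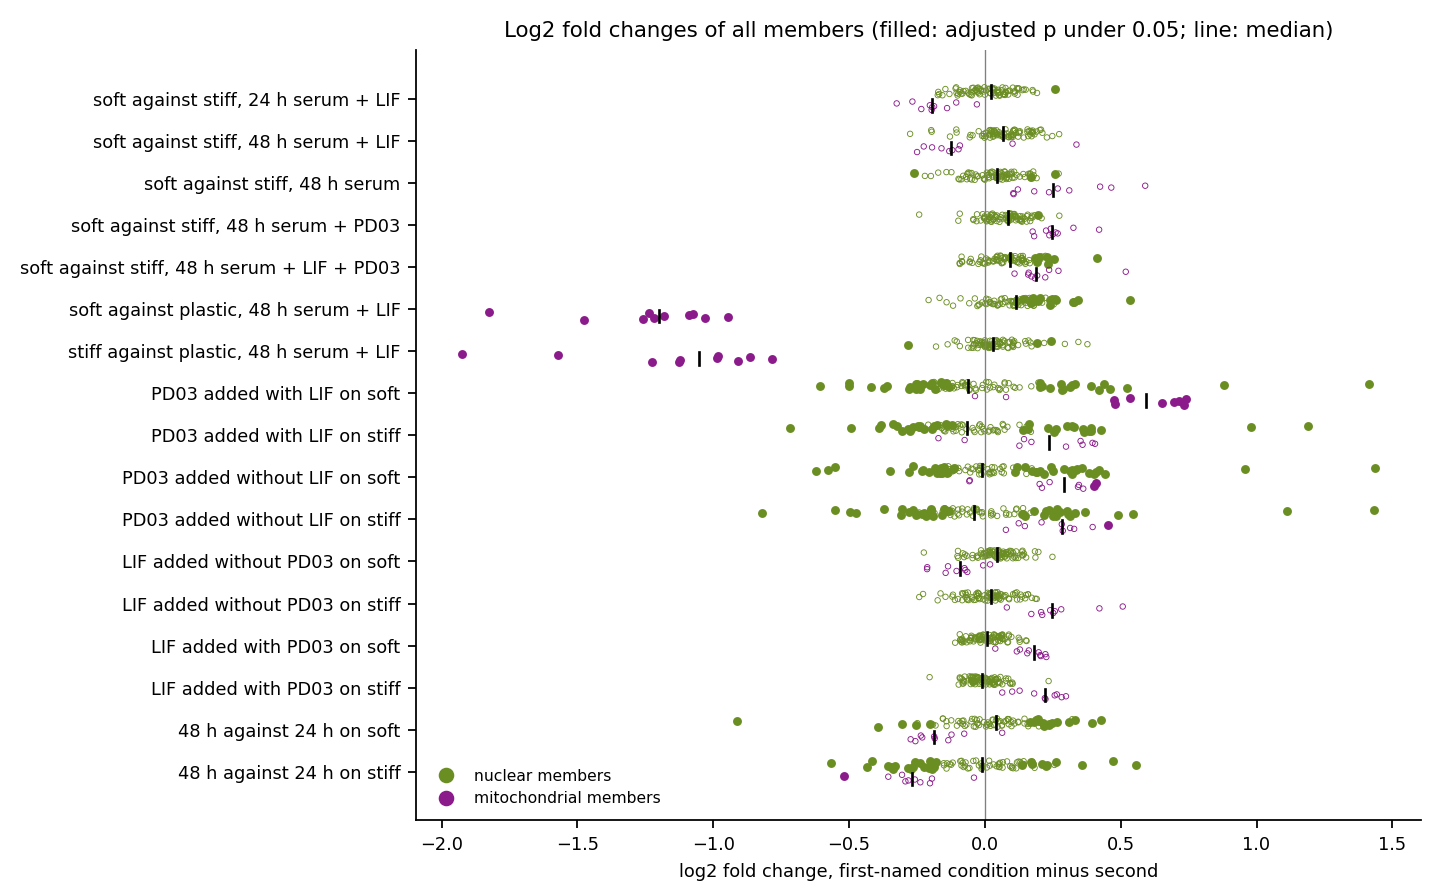
Log2 fold change (horizontal axis, first-named condition minus second) of all 95 members in the 17 comparisons (rows), nuclear in green and mitochondrially encoded in purple, filled where the edgeR adjusted p was under 0.05, with a line at the median. The mitochondrially encoded members lay at -1.93 to -0.78 in the plastic comparisons and near 0 between the hydrogels, and the PD03 comparisons held nuclear members on both sides of 0.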

How the data were processed

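RNA of 36 samples in 11 groups was sequenced. The labels name a NuGen library kit, and the submitters' processing notes name STAR 2.5.2a, HTSeq, DESeq and the build mm10. The authors deposited unnormalised whole-number read counts for each Ensembl gene. Strand setting and multi-mapping reads are not described in the sources used here. Columns carry a group and no replicate number, so they were assigned to groups, and a library number is only a name. Libraries of 1 group differed beyond sampling noise in all 45 pairs (chi-square over degrees of freedom 2.22 to 13.4).

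Symbols were found for 49326 of 49671 identifiers. Genes under the expression filter of edgeR were dropped, which left 17702. All 11 groups were fitted together in edgeR 4.0.16 (R 4.3.3, TMM factors, quasi-likelihood test, 2-sided), with Benjamini-Hochberg adjustment over all 17702 genes and a threshold of 0.05. CPM used TMM factors, while membership used plain library totals. FPKM used the union of exons. The script was tested on simulated data. DESeq2 1.42.0, median-ratio size factors, no filter, library sizes without mitochondrial genes, the compared groups alone, each library left out, and pool as a term were alternatives. Intervals cover the spread between libraries only.

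The members and lists were chosen with earlier results of these data known. Genes are named when mitochondrially encoded, of complex II, called in an interaction, of an isoform pair, or among the up to 3 largest called changes in each direction for each complex and comparison. Other members called in all 4 PD03 comparisons or on both substrates, and further genes of the lists, were named after their values were seen. The values of 1 member called on soft against plastic are not reported here.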

Additional observations from a re-analysis of the deposited data

Results flagged for a closer look

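In soft 48 h serum + PD03, the only group with 6 libraries, 6 of the 95 members had a library farther from its neighbour than Dixon's 95% critical value allows. The lowest library lay apart for Ndufa9 (40.8 CPM), Sdhb (128 CPM), Atp5b (1727 CPM) and Atp5c1 (364 CPM), and the highest for Uqcrfs1 (40.9 CPM) and Atp5o (270.9 CPM). It was library 3 for Sdhb, Atp5b, Atp5c1 and Atp5o, library 1 for Ndufa9 and library 2 for Uqcrfs1. Pairs of libraries that held library 3 had a chi-square over degrees of freedom of 8.28 to 12.8. The other pairs of this group lay at 2.65 to 5.22. Chance alone flags about 1 in 20 groups, but the members were read from the same libraries and are not independent. Smaller groups were not tested this way.

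The response of Cox7c to PD03 without LIF differed between soft and stiff by 0.45 on the log2 scale (edgeR interaction), as described above.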

How the results depend on the processing

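No paired analysis was possible because the columns of the count table carry no replicate numbers. The alternatives that leave out both libraries with few mitochondrial counts, and the range of single values over pool assignments, were chosen after seeing the data. Calls under the alternatives were counted for the members only, and the shares of all genes called under them were not measured. Among the counts of members called, DESeq2 changed 7 of 39 beyond 1.5 times and median-ratio size factors 1. The cause of the changes below was not tested, apart from the fewer libraries where libraries were left out.

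Soft against stiff gave these nuclear counts. At 24 h it was 2 with DESeq2, with median-ratio size factors and without both low libraries, 0 at the lowest with pool, and 0 to 1 with 1 library left out. In serum + LIF at 48 h it was 1 with DESeq2, with library sizes without mitochondrial genes and Gm26917 (an abundant noncoding RNA gene) and at the highest with pool, 6 without the filter, and 0 to 7 with 1 library left out. In serum it was 0 at the lowest with pool and 1 to 3 with 1 left out. In serum + PD03 it was 2 with DESeq2, 5 in the compared groups alone, 4 without the filter, 0 to 4 with pool and 0 to 2 with 1 left out. In serum + LIF + PD03 it was 11 in the compared groups alone, 0 at the lowest with pool and 0 to 8 with 1 left out. Mitochondrially encoded counts were 5, 3, 5, 7 and 6 without the filter in that order, 5 and 1 in the compared groups alone in the media with PD03, and 1 at the highest with pool in the 3 other media than serum + LIF.

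Against plastic, nuclear counts on soft were 28 without the filter, 7 without both low libraries, 0 to 3 with pool and 6 to 32 with 1 left out, and on stiff 5 in the compared groups alone, 0 with pool and 0 to 3 with 1 left out. Mitochondrially encoded counts with pool were 0 to 6 on soft and 4 at the lowest on stiff.

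Mitochondrially encoded counts with PD03 were, with LIF on soft, 5 with DESeq2 and without both low libraries, and 2 to 8 with 1 left out. With LIF on stiff they were 7 in the compared groups alone and without the filter, 1 with library sizes without mitochondrial genes and 5 without both low libraries. Without LIF on soft they were 1 with DESeq2, 7 in the compared groups alone and without the filter, 5 without both low libraries, 0 at the lowest with pool and 0 to 4 with 1 left out. Without LIF on stiff they were 0 with DESeq2 and without both low libraries, 6 without the filter and 0 to 5 with 1 left out. With LIF as the contrast, they were 1, 7, 5 and 7 without the filter, and 7 with PD03 on stiff in the compared groups alone. Nuclear counts with LIF without PD03 on stiff were 1 with DESeq2, in the compared groups alone and without the filter, and 0 to 1 with 1 left out, and with PD03 on stiff 1 in the compared groups alone.

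Over time, nuclear counts with pool were 0 to 5 on soft and 6 to 17 on stiff, and 19 to 29 on stiff with 1 left out. Mitochondrially encoded counts were 6 on soft and 7 on stiff without the filter, 7 on stiff in the compared groups alone, 2 on stiff without both low libraries, 0 on stiff at the lowest with pool, and 0 to 3 on soft with 1 left out. In interactions, counts without the filter were 8 (stiffness by PD03 with LIF), 2 (without LIF), 2 (stiffness by time) and 7 (PD03 by LIF on soft), and 0 to 1 with 1 left out for stiffness by PD03 without LIF and for stiffness by time.

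With pool as a term, the lowest log2 fold change over the assignments turned negative for Atp5d (-0.023), Atp5h (-0.0017) and Ndufaf8 (-0.20) on soft against plastic, and for Cox8a (-0.035), Ndufa9 (-0.13), Ndufaf2 (-0.14) and Uqcrh (-0.078) over time on soft. Counts of nuclear members called with PD03 stayed within 1.5 times of the values given under every alternative. At 10405696 counts or more per library, all 95 members had counts enough to be tested.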

Other observations

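Several genes of the same families lay under the level of 5 CPM and were not described above. Isoforms known from other tissues were close to 0 in the mean over all 36 libraries, with Cox4i2 at 0.324 CPM, Cox6a2 at 0.0118 CPM, Cox7b2 at 0.397 CPM, Cox8b at 0.00387 CPM and Cox8c at 0.245 CPM. Their counterparts that most tissues use stood at 235 CPM for Cox4i1, 423 CPM for Cox6a1 and 236 CPM for Cox8a. Ndufa4l2, the relative of the complex IV subunit Ndufa4 that is induced by low oxygen, averaged 1.48 CPM beside 78.6 CPM for Ndufa4. Cox7a1 and Cox6b2 were thus the tissue-type isoforms of complex IV that passed the level, at 17.7 and 21.3 CPM.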
